A study of Spodoptera frugiperda with 18 samples.

Results

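miR-263 and miR-263b are small RNAs of insects that take their place among the sensory organ miRNAs. The counts for them in the fall armyworm, Spodoptera frugiperda, a crop pest among the moths, stand in 5 of the 741 rows of the deposited table. These rows were taken by name, and are miR-263-x, miR-263-z, miR-263-y, sfr-miR-263b-5p and sfr-miR-263b-3p. The prefix sfr- marks the species' own names, and the endings -x, -y and -z come with family names taken from other animals. Small RNA was sequenced in 18 libraries, 1 each for the egg, every larval instar from 1 to 6 and the prepupa, 1 of each sex for pupal days 1, 4 and 7, and 1 of each sex for adult days 1 and 4. The labels give no tissue, strain or treatment and do not say how many animals went into a library. With 1 library for each instar, and for each sex at each pupal and adult age, the 6 larvae, the 6 pupae and the 4 adults stood in as replicates of their life stage, and p-values measure only the spread among them, which holds age and sex. A lower level in a whole sample can mean fewer cells that make a miRNA or less of it per cell, and these cannot be told apart here.

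A miRNA is cut from a hairpin precursor as a pair of strands, the 5p and 3p arms, and usually 1 arm accumulates and guides repression. It finds its messenger RNA targets mainly through the seed, bases 2 to 8 from its 5′ end. In Drosophila, miR-263a and miR-263b protect the precursors of sensory bristles from programmed cell death by repressing the death gene hid, and bristle organs of the adult are built in the pupa. Fly miR-263a also acts in the gut, where it restrains sodium channels. The vertebrate miR-183 family, which is related to miR-263b, is made in sensory cells such as the hair cells of the ear.

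The sequences show which of the 5 rows belong together, and are printed as listed, with bases 2 to 8 in capitals.
miR-263-x: aATGGCACtggaagaattcacgg
miR-263-z: aATGGCACtggaagaattcacggga
sfr-miR-263b-5p: cTTGGCACtgggagaattcacag
sfr-miR-263b-3p: cGTGAATTtcctgatgccttag
miR-263-y: tGAATTTCctgatgccttagca
miR-263-z is miR-263-x with more bases at its 3′ end, and both carry the seed ATGGCAC. sfr-miR-263b-5p is identical to miR-263-x at 19 of 23 positions and has the seed TTGGCAC. Counted from the 5′ end, the substitutions from miR-263-x to sfr-miR-263b-5p are A1C, A2T, A12G and G22A, of which A2T falls in the seed. miR-263-y matches sfr-miR-263b-3p over 20 aligned bases with 0 differences and starts 2 bases further in, so the family row -y holds the 3p arm of miR-263b in another register, with another seed. Computed duplexes point the same way, though not sharply. sfr-miR-263b-3p gave -19.8 kcal/mol with sfr-miR-263b-5p and -19.1 kcal/mol with miR-263-x, each over 16 base pairs, while miR-263-y gave -16.1 and -13.2 kcal/mol. No row among the 5 is therefore set here as the 3p arm of miR-263-x.

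4 other rows carried a seed of the family, and they were read beside the 5 because counting could have split reads among near copies.
miR-228-x: aATGGCACtagaagaattcacgg
miR-183-z: aATGGCACtgtaagaattcac
miR-228-x differs from miR-263-x by G10A and miR-183-z by G11T, 1 substitution each. miR-228-x held between 0% and 0.0992% of the counts that it and miR-263-x had together in a library, and miR-183-z between 0% and 0.0262% by the same reckoning. miR-1271-x and a row predicted from these libraries share the seed of sfr-miR-263b-5p but differ from it at 8 and 10 aligned positions. miR-1271-x had 11 counts over all libraries and the predicted row 3611.

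Column totals ran from 233304 counts in instar 3 to 4893525 in the prepupa, and 9 libraries were shallow, with at most 808248 counts: the egg, every instar, and the day 4 and day 7 male pupa. The labels' protocol speaks of 9 libraries and does not say which, so whether the 18 were prepared or sequenced together is not given. Depth moved with life stage, as all 6 larvae and 2 of the 6 pupae were shallow and all 4 adults were not. In adults against larvae depth and stage cannot be told apart. For pupae against larvae and adults against pupae, fits without the shallow male pupae are given below for miR-263-x and sfr-miR-263b-5p. For miR-263-z that fit is given in pupae against larvae only. For the steps between pupal and adult ages, libraries were left out only 1 at a time. Levels are CPM, the count divided by this total and scaled to 1000000. The rows are 22 to 25 bases long, so no correction for length was made. Intervals cover counting error only, as the reads carry no molecular identifiers and copies of 1 molecule may be counted again. The 5 rows together took 18.2% of the counts of the day 7 male pupa and 0.849% of those of the egg. miR-263-x held 1347780 counts over the 18 libraries, sfr-miR-263b-5p 66016, miR-263-z 15039, sfr-miR-263b-3p 1207 and miR-263-y 34. The first 4 passed the minimum for testing, a mean of 10 counts over the libraries of a fit, and miR-263-y did not in any fit.

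miR-263-x was the most abundant member in every library and stood highest in pupae of days 4 and 7. It had 8038 CPM in the egg, with a 95% interval of 7755 to 8329 CPM. In instars 1 to 6 it had 35561, 21070, 25075, 24791, 16164 and 24648 CPM, followed by 17203 CPM in the prepupa. Every larva and the prepupa thus stood above the egg, and in CPM of column totals above both day 1 pupae. With TMM factors, the scaling used in the tests, the day 1 female pupa (15754 CPM) lay above instars 2 and 5 (14613 and 14886 CPM). In females it then had 13669, 101036 and 126942 CPM on pupal days 1, 4 and 7 and 16662 and 24030 CPM on adult days 1 and 4. The males of the same ages had 11414, 93014 and 176463 CPM as pupae and 19399 and 27913 CPM as adults. All 4 pupae of days 4 and 7 lay above the other 14 libraries, and miR-263-x ranked 2 among all miRNAs in each of them. How many other miRNAs set these 4 libraries apart was not counted. On pupal day 1 it ranked 18 and 20, and in adults between 8 and 16.

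**Figure D1:**
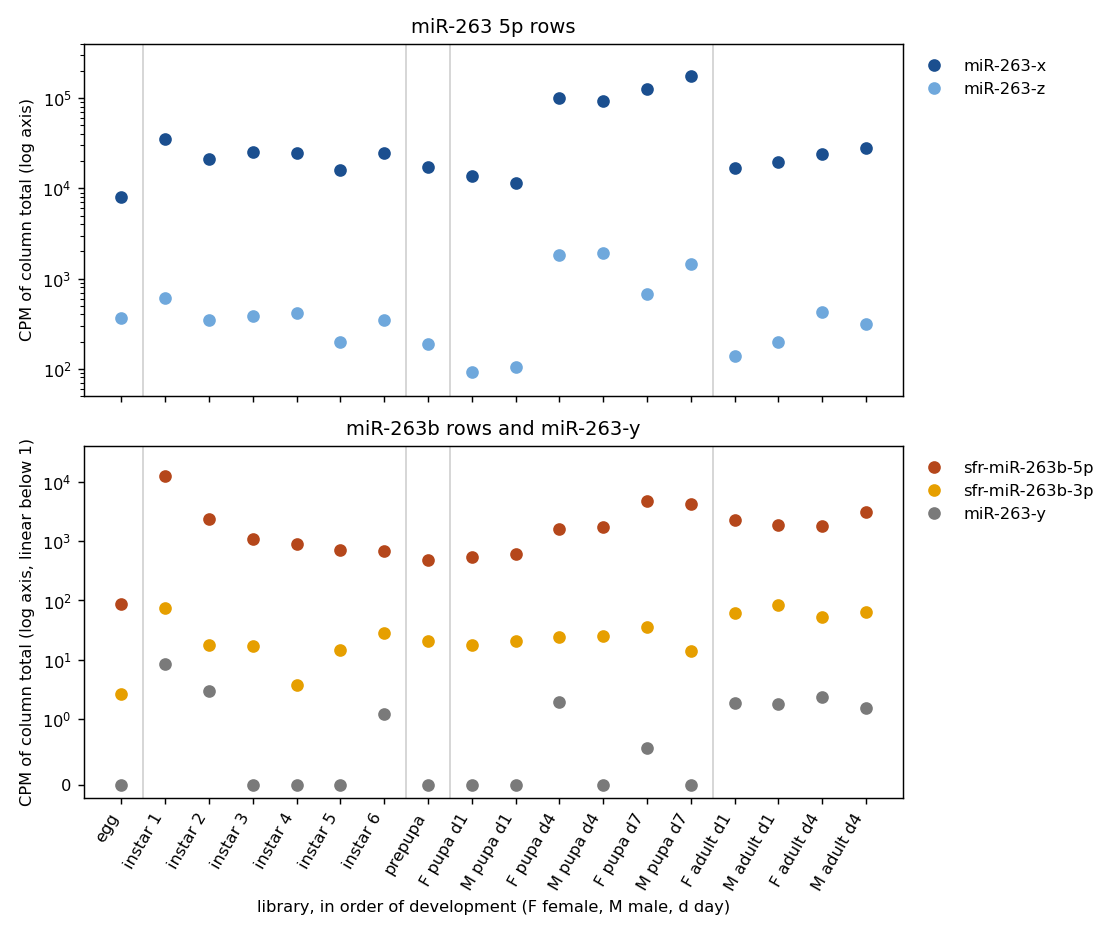
CPM of the column total of the 5 rows in each of the 18 libraries, on a log axis that is linear below 1 in the lower panel, with 1 point per library and grey lines between life stages. miR-263-x is highest in the 4 pupae of days 4 and 7 (93014 to 176463 CPM), whereas sfr-miR-263b-5p is highest in instar 1 (12647 CPM).

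sfr-miR-263b-5p, the 5p arm of miR-263b, followed another course, with its peak in the first instar. It had 33 counts in the egg, 87.8 CPM with a 95% interval of 60.4 to 123 CPM. In instars 1 to 6 it had 12647, 2326, 1067, 907, 702 and 679 CPM, and 474 CPM in the prepupa. Each instar was lower than the one before it in CPM of column totals, although with TMM factors instar 6 (775 CPM) lay above instar 5 (646 CPM). In females it had 536, 1600 and 4697 CPM on pupal days 1, 4 and 7 and 2295 and 1828 CPM on adult days 1 and 4. The males had 606, 1729 and 4177 CPM as pupae and 1874 and 3144 CPM as adults. After the egg, levels were thus lowest in the prepupa and the day 1 pupae, were higher on each later pupal day in both sexes, and in no later library reached that of instar 1. It ranked 18 in instar 1, 72 in the prepupa and 134 in the egg.

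The remaining rows were minor. miR-263-z, the longer form of miR-263-x, ran from 91.5 CPM in the day 1 female pupa to 1917 CPM in the day 4 male pupa. sfr-miR-263b-3p, the other arm of miR-263b, had 1 count in the egg, 73.9 CPM in instar 1 and 3.79 to 28.5 CPM in instars 2 to 6. Adult females had 61.5 and 51.7 CPM of it on days 1 and 4, and adult males 82.5 and 64.3 CPM, all above the pupae, where the range was 14.1 to 35.1 CPM. With TMM factors the lowest adult, the day 4 female (49.4 CPM), stood barely above the day 7 female pupa (48.1 CPM). How many miRNAs part adults from pupae in this way was not counted. miR-263-y had at most 6 counts in any library and was at 0 in 9 of them. The limit that a count of 0 allows, 3 counts, ranged between 0.613 CPM (prepupa) and 12.9 CPM (instar 3), which in every shallow library is above the adult levels of 1.51 to 2.31 CPM. Among the shallow libraries instars 1, 2 and 6 had 6, 1 and 1 counts of it, and the others were at 0.

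Steps between single libraries were read without a test, where either reached 100 CPM and the change was at least 2-fold. From egg to instar 1, miR-263-x was 4.42-fold higher and sfr-miR-263b-5p 144-fold higher in instar 1, this last value against 33 egg counts. With TMM factors these folds were 2.37 and 77.2. The egg total counts some sequences in several rows; with identical rows merged, the egg had 10585 CPM of miR-263-x. sfr-miR-263b-5p was then 5.44-fold lower in instar 2 than in instar 1 and 2.18-fold lower in instar 3 than in instar 2, while no step of miR-263-x between instars reached 2-fold. Neither miRNA passed this size between instar 6 and the prepupa, nor between the prepupa and the day 1 pupae.

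Over the larval instars, 1 of the 4 tested rows changed with instar number. sfr-miR-263b-5p fell by 0.76 per instar on the log2 scale (SE 0.18, adjusted p = 0.0208, edgeR's quasi-likelihood test), in a comparison that called 29.1% of 234 tested miRNAs. Calls split into 25 higher and 43 lower with TMM factors, against 16 and 49 with library totals. miR-263-x had a slope of -0.06 per instar (SE 0.09, adjusted p = 0.639, edgeR), miR-263-z -0.13 (SE 0.10, adjusted p = 0.375, edgeR) and sfr-miR-263b-3p -0.23 (SE 0.22, adjusted p = 0.454, edgeR). The slope of sfr-miR-263b-5p rested in part on instar 1. It was -0.33 without that library (adjusted p = 0.0948, edgeR), and the call was also lost without instar 4 (adjusted p = 0.0524) or instar 5 (adjusted p = 0.0556), by the same test.

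Pupae were compared with larvae to ask which miRNAs differ across metamorphosis. miR-263-x ran from 11414 to 176463 CPM in pupae, with a median of 97025 CPM, against 16164 to 35561 CPM in larvae, with a median of 24720 CPM. The groups overlap, since the pupae of days 4 and 7 lay above all 6 larvae and those of day 1 below them in CPM of column totals, where with TMM factors the day 1 female lay above instars 2 and 5. Means were 87090 ± 64688 CPM in pupae and 24551 ± 6388 CPM in larvae (SD, n = 6 each), and miR-263-x rose by 2.23 on the log2 scale (SE 0.58, adjusted p = 0.00853, edgeR). miR-263-z averaged 1009 ± 828 CPM in pupae and 384 ± 133 CPM in larvae (SD, n = 6 each) and also rose, by 1.79 (log2, SE 0.66, adjusted p = 0.0448, edgeR). Its call was lost in 13 of 16 fits that left out 1 library, with adjusted p up to 0.101, with library totals (adjusted p = 0.0975) and without the shallow male pupae (log2 1.18, adjusted p = 0.201, edgeR). As its sequence contains that of miR-263-x, the division of reads between these rows is uncertain.

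So 2 of 4 tested rows were called in pupae against larvae, where 37.5% of 320 miRNAs passed in edgeR, with 62 up and 58 down (44 and 78 with library totals). Without the shallow male pupae of days 4 and 7, the change of miR-263-x was 1.74 (adjusted p = 0.0455, edgeR). sfr-miR-263b-5p averaged 2224 ± 1791 CPM in pupae and 3055 ± 4739 CPM in larvae (SD, n = 6 each). Its log2 fold change was 0.13, SE 0.74 (adjusted p = 0.916, edgeR), and -0.46 with library totals, so no direction is given. Without instar 1 it was 1.42, adjusted p = 0.0645 by edgeR. sfr-miR-263b-3p averaged 22.7 ± 7.24 CPM in pupae and 25.9 ± 24.8 CPM in larvae (SD, n = 6 each; log2 0.11, SE 0.52, adjusted p = 0.904 by edgeR; -0.22 with library totals).

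Adults were compared with pupae across eclosion, the emergence of the moth. miR-263-x fell to 22001 ± 4978 CPM in adults (SD, n = 4), against 87090 ± 64688 CPM in pupae (SD, n = 6), with a log2 change of -2.21 (SE 0.67, adjusted p = 0.0269, edgeR). The 4 adults, at 16662 to 27913 CPM, lay between the day 1 pupae and the older ones. This call was lost without the day 7 male pupa or without any single adult, with adjusted p from 0.0552 to 0.0793, and with both shallow male pupae left out (log2 -1.71, adjusted p = 0.0977, edgeR). miR-263-z averaged 268 ± 127 CPM in adults (SD, n = 4), and its log2 change of -2.13, SE 0.78, had an adjusted p of 0.0564 in edgeR, 0.0160 in DESeq2 and 0.0497 in edgeR without the vertebrate families. It passed in edgeR as well without the day 1 female or male pupa (adjusted p = 0.0202 and 0.0245). In the other 14 of 16 fits without 1 library miR-263-z did not pass, with adjusted p up to 0.142 in edgeR. Over all alternatives its log2 change ran from -2.43 to -1.50, and its adjusted p reached 0.200 in edgeR. sfr-miR-263b-5p averaged 2285 ± 610 CPM in adults (SD, n = 4), a log2 change of -0.18, SE 0.83 (edgeR, adjusted p = 0.908), and of 0.07 with library totals. sfr-miR-263b-3p averaged 65.0 ± 12.8 CPM in adults (SD, n = 4), and changed by 1.38 on the log2 scale without passing (SE 0.57, adjusted p = 0.0899, edgeR). It passed in DESeq2 (adjusted p = 0.0193) and, in edgeR, without instar 1 (adjusted p = 0.0481). Among the 4 rows edgeR called 1, which was lower, where it called 23.4% of 320 miRNAs and 12.2% as lower. DESeq2 called 104 of the 320.

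In adults against larvae edgeR called 0 of the 4 rows, of which 1, sfr-miR-263b-3p, had an unadjusted p under 0.05 and was called by DESeq2 (log2 1.53, adjusted p = 0.0144). In that comparison edgeR called 33.1% of 320 miRNAs, 140 of the 320 had an unadjusted edgeR p under 0.05, and DESeq2 called 133. miR-263-x differed by 0.02 on the log2 scale, SE 0.62 (adjusted p = 0.995, edgeR; -0.12 with library totals), and sfr-miR-263b-5p by -0.05, SE 0.83 (adjusted p = 0.981, edgeR; 1.26 without instar 1). In edgeR sfr-miR-263b-3p had 1.50, SE 0.57, adjusted p = 0.0560, and 1.99, adjusted p = 0.0120, without instar 1. It also passed in edgeR with DESeq2's size factors (1.59, adjusted p = 0.0455) and without the vertebrate families (1.51, adjusted p = 0.0381).

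**Figure D2:**
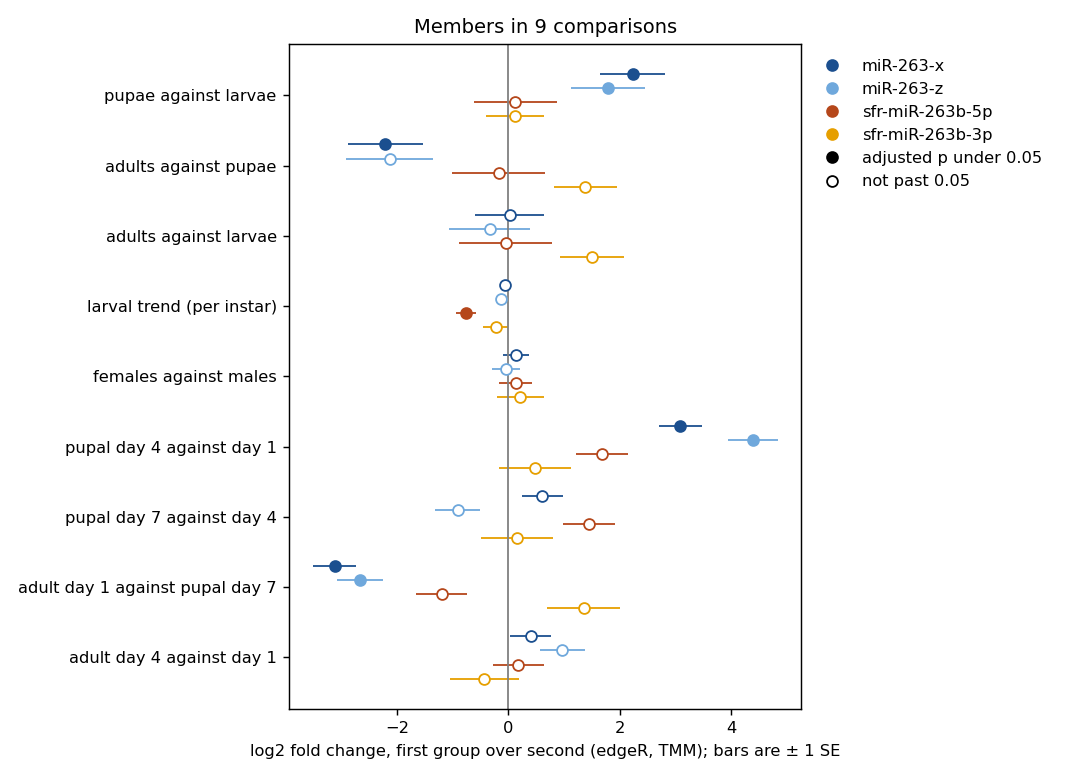
Log2 fold changes of the 4 tested rows in 9 comparisons, first group over second, from edgeR with TMM factors. Bars are 1 SE and filled points passed an adjusted p of 0.05; the 5p rows of miR-263 reach 3.09 and 4.39 on pupal day 4 against day 1 and -3.12 and -2.66 on adult day 1 against pupal day 7.

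Successive ages were compared to place these changes in time, with the female and the male of an age as its replicates. On pupal day 4, miR-263-x was 7.39-fold higher than on day 1 in females and 8.15-fold higher in males, in CPM. By edgeR it rose by 3.09 on the log2 scale (SE 0.39, adjusted p = 0.0102). miR-263-z stood at 1817 (female) and 1917 CPM (male) on day 4, against 91.5 and 106 CPM on day 1, and rose by 4.39 on the log2 scale (SE 0.45, adjusted p = 0.00528, edgeR). These 2 of 4 tested rows were called and were higher, where edgeR called 5.52% of 344 miRNAs, 2.62% as higher and 2.91% as lower (9 and 10 rows; 11 and 28 with library totals). sfr-miR-263b-5p was 2.99-fold higher on day 4 in females and 2.85-fold higher in males, and did not pass (log2 1.68, SE 0.47, adjusted p = 0.0829, edgeR). It passed with library totals (1.55, adjusted p = 0.0246) and with DESeq2's size factors (1.80, adjusted p = 0.0398).

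With 1 library left out, the calls of miR-263-x and miR-263-z on day 4 were lost without the day 1 female or male pupa or the day 4 female pupa, with adjusted p between 0.0503 and 0.140. miR-263-x kept a log2 fold change of at least 2.66 in all 10 of these fits. Rows of vertebrate families moved with this step. Their share of the counts was 0.0950% and 0.141% in day 4 females and males, against 0.00420% and 0.00503% on day 1. With those rows left out the change of miR-263-x was 2.95 (adjusted p = 0.00384, edgeR).

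From pupal day 4 to day 7 no row among the 4 passed, and edgeR called 0% of 344 miRNAs, while 56 reached an unadjusted p under 0.05 and 44 passed in DESeq2. sfr-miR-263b-5p was 2.94-fold higher on day 7 in females and 2.42-fold higher in males, in CPM (log2 1.44, SE 0.46, adjusted p = 0.225 by edgeR; DESeq2 Wald 1.55, adjusted p = 0.00444). miR-263-x had a log2 fold change of 0.61, SE 0.36, and miR-263-z of -0.91, SE 0.40 (adjusted p = 0.505 and 0.321, edgeR). miR-263-z was 2.67-fold lower on day 7 in females, whereas the males differed by less than 2-fold.

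At eclosion both rows of the miR-263 5p arm fell. Day 1 adults had 16662 and 19399 CPM of miR-263-x in females and males, against 126942 and 176463 CPM in day 7 pupae, which is 7.62-fold and 9.10-fold lower. On the log2 scale the change was -3.12 (SE 0.39, adjusted p = 0.00597, edgeR). miR-263-z had 138 and 197 CPM in day 1 adults, against 681 and 1440 CPM in day 7 pupae, and fell by 2.66 on the log2 scale (SE 0.42, adjusted p = 0.0197, edgeR). These were 2 of 4 tested rows, both lower, where 3.78% of 344 miRNAs were called and 2.62% were lower (4 up and 9 down; 14 and 18 under DESeq2's size factors; 22 and 16 under library totals). sfr-miR-263b-5p was 2.05-fold and 2.23-fold lower in female and male adults (log2 -1.20, SE 0.46, adjusted p = 0.180 by edgeR). DESeq2's Wald test gave it -1.33, adjusted p = 0.00674, and called 75 of the 344 miRNAs. sfr-miR-263b-3p differed the other way, at 1.35, SE 0.66, adjusted p = 0.252 by edgeR. Both calls were lost without any 1 of the 4 libraries compared, with adjusted p from 0.0553 to 0.203, though the change of miR-263-x stayed between -3.40 and -2.91.

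On adult day 4 against day 1 edgeR and DESeq2 each called 0 of the 4 rows, and 1, miR-263-z, had an unadjusted edgeR p under 0.05. edgeR called 0.291% of 344 miRNAs. miR-263-x stood at 24030 (female) and 27913 CPM (male) on day 4, against 16662 (female) and 19399 CPM (male) on day 1 (log2 0.40, SE 0.36, adjusted p = 0.854 by edgeR).

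Females were compared with males over the 5 ages. For miR-263-x the larger CPM of a pair was at most 1.39-fold the smaller, on pupal day 7, where the male was higher. With TMM factors the widest gap was instead on pupal day 4, where the female was 1.89-fold higher. The log2 difference, female over male, was 0.13, SE 0.23, adjusted p = 0.800 by edgeR, and -0.09 with library totals. sfr-miR-263b-5p differed most on adult day 4, with 1828 CPM in the female and 3144 CPM in the male; its log2 difference over the ages was 0.13, SE 0.29, adjusted p = 0.866 by edgeR, and -0.10 with library totals. sfr-miR-263b-3p had 35.1 CPM in the day 7 female pupa and 14.1 CPM in the male, where it had 6 counts. edgeR and DESeq2 each called 0 of the 4 rows, of which 0 had an unadjusted edgeR p under 0.05, where edgeR called 0.581% of 344 miRNAs. The approximate 95% intervals of the sex difference, from the normal distribution and the SE, were -0.32 to 0.59 for miR-263-x and -0.45 to 0.70 for sfr-miR-263b-5p.

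The sex difference was also compared between adults and pupae, a comparison in which edgeR called 3.2% of 344 miRNAs, 2.62% as higher and 0.581% as lower. It was -0.84, SE 0.29, for miR-263-x (adjusted p = 0.175, edgeR) and -0.86, SE 0.49, for sfr-miR-263b-5p (adjusted p = 0.350, edgeR), with a median of -0.35 over all miRNAs. Without the day 1 female adult both had an adjusted p of 0.0477, and without the day 1 male adult sfr-miR-263b-5p had 0.0468. Adjusted p over the alternatives ran from 0.0477 to 0.880 for miR-263-x and from 0.0468 to 1.0 for sfr-miR-263b-5p.

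The ratio of miR-263-x to sfr-miR-263b-5p within a library needs no scaling between libraries and shows how far the pair parted. The egg had 91.6 counts of miR-263-x for each of sfr-miR-263b-5p. In instars 1 to 6 there were 2.81, 9.06, 23.5, 27.3, 23.0 and 36.3, and in the prepupa 36.3. Instars 1 and 2 were the lowest of the larvae. In females there were 25.5, 63.1 and 27.0 on pupal days 1, 4 and 7, then 7.26 and 13.1 on adult days 1 and 4. In males there were 18.8, 53.8 and 42.3 as pupae, then 10.4 and 8.88 as adults. The excess of miR-263-x was smallest in instar 1, and larger in all 6 pupae than in any adult.

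**Figure D3:**
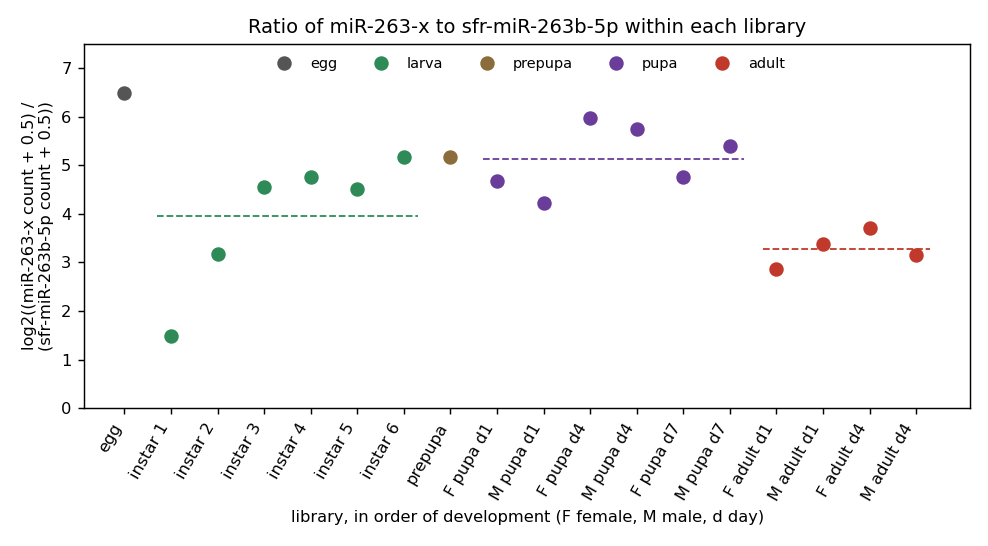
Log2 ratio of miR-263-x to sfr-miR-263b-5p counts, each with 0.5 added, in the 18 libraries, coloured by stage, with dashed lines at the means of larvae, pupae and adults. The pupae average 5.13 and lie above the 4 adults, which average 3.27; instar 1 is lowest at 1.49.

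On the log2 scale, with 0.5 added to each count, the ratio averaged 3.27 ± 0.36 in adults (SD, n = 4) and 5.13 ± 0.68 in pupae (SD, n = 6). The difference of -1.86 had an exact two-sided permutation p of 0.00476, the smallest that this design allows, and an adjusted p of 0.0143 over 9 ratio tests. Those 9 include the ratio of miR-263-x to miR-263-y, from which no difference is read below. Its exact permutation p was 0.00216 in pupae against larvae and 0.00476 in adults against pupae, which lowers the adjusted p given here. Without the day 1 female adult the adjusted p for miR-263-x to sfr-miR-263b-5p was 0.0714 by the exact test. In pupae against larvae the ratio averaged 5.13 ± 0.68 and 3.95 ± 1.38 (SD, n = 6 each), an excess of 1.18 in pupae with an exact permutation p of 0.0758 and an adjusted p of 0.170. In adults against larvae the difference was -0.67, exact permutation p = 0.367, adjusted p = 0.471. Both rested in part on instar 1, the lowest library: without it they were 0.69 (adjusted p = 0.221, exact permutation test) and -1.17 (adjusted p = 0.0714, exact permutation test). The pair thus changed unequally between pupae and adults by the test of their ratio, and for the other pairs of stages that test did not pass.

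The arms of miR-263b were compared in the same way. sfr-miR-263b-5p outnumbered sfr-miR-263b-3p in all 18 libraries, from 22.7-fold in the day 1 male adult to 295-fold in the day 7 male pupa. In females the excess was 30.5-fold, 67.3-fold and 134-fold on pupal days 1, 4 and 7 and 37.3-fold and 35.4-fold on adult days 1 and 4. The males had 28.9-fold and 69.6-fold on pupal days 1 and 4, and 48.9-fold on adult day 4. It grew from day 1 to day 7 of the pupa in both sexes, though the last male value rests on 6 counts of the 3p arm. The log2 ratio averaged 5.11 ± 0.46 in adults (SD, n = 4) and 6.17 ± 1.25 in pupae (SD, n = 6), exact permutation p = 0.148, adjusted p = 0.221. Against larvae, at 6.23 ± 1.16 (SD, n = 6), pupae had an exact permutation p of 0.933 and adults of 0.105, adjusted p = 0.933 and 0.189. The names alone would make miR-263-x and miR-263-y a second pair of arms, but miR-263-y is a form of the miR-263b 3p arm with 34 counts, and their ratio is not one of arms. miR-263-y was at 0 in 3 of 6 larvae and 4 of 6 pupae, where the ratio with 0.5 added is set by the count of miR-263-x alone. It averaged 13.4 in adults, 16.5 in pupae and 13.0 in larvae on the log2 scale, and no difference between stages is read from these values.

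The longer 5p row did not keep a fixed proportion to miR-263-x. miR-263-z made up 4.34% of their joint counts in the egg (exact 95% interval 3.65 to 5.11%) and 1.22 to 1.68% in the 6 instars. Among pupae it was 0.665%, 1.77% and 0.534% in females on days 1, 4 and 7, and 0.919%, 2.02% and 0.809% in males. Adults had 0.823% and 1.74% in females and 1.003% and 1.11% in males on days 1 and 4. The exact 95% intervals of both day 4 pupae, 1.72 to 1.81% in the female and 1.89 to 2.15% in the male, lie above those of the day 1 and day 7 pupae. Within the pupa the share thus peaked on day 4 in both sexes, 1 library each, and no test was made. The egg stood higher, and the interval of the day 4 female adult, 1.59 to 1.89%, overlapped that of the day 4 female pupa.

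**Figure D4:**
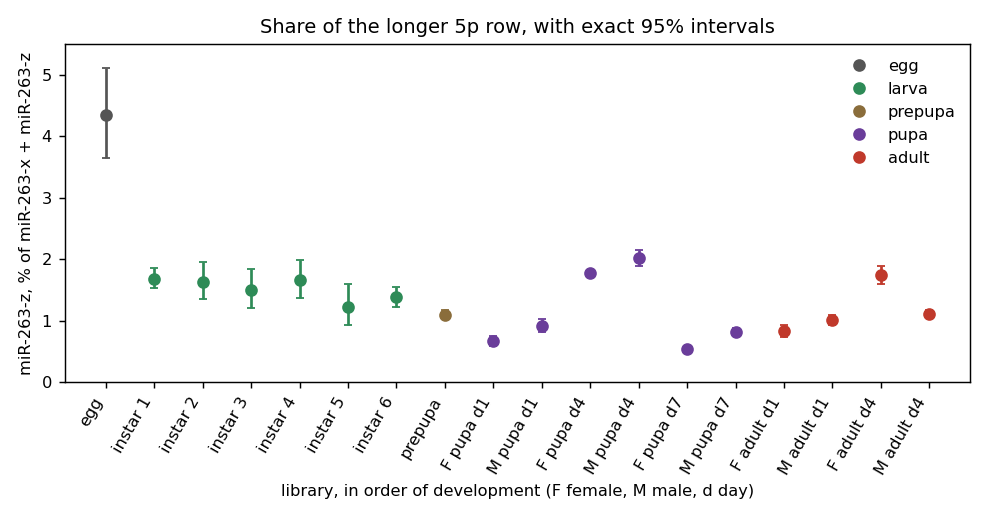
Counts of miR-263-z as a percentage of miR-263-x and miR-263-z together in each library, with exact 95% binomial intervals for counting error, coloured by life stage. The egg stands at 4.34%, and the day 4 pupae at 1.77% and 2.02% are above the pupae of the other days.

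The course of each 5p row was set beside those of the 181 other miRNAs with a mean of at least 100 CPM, by Pearson's r of log2(CPM + 1) over the 18 libraries. These libraries share scaling and stage, and r is a description. The rows most like miR-263-x were sfr-miR-2b-3p (r = 0.724), sfr-miR-2a-3p (r = 0.677), miR-11625-x (r = 0.622), sfr-miR-2c-3p (r = 0.601) and miR-8487-z (r = 0.583). Those most like sfr-miR-263b-5p were miR-2767-z (r = 0.854), sfr-miR-285-3p (r = 0.778), a row predicted from these libraries (r = 0.772), miR-981-y (r = 0.749) and sfr-miR-2755-3p (r = 0.743). No name stood in both sets of 5, but sets this small out of 181 would seldom share one at random, and nothing is read from it. Between miR-263-x and sfr-miR-263b-5p themselves r was 0.631, and between miR-263-x and miR-263-z 0.845.

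The other miRNAs of sensory organs and nerve cells, 29 rows of families such as miR-7, miR-9, miR-124 and miR-279, were read beside the shares that edgeR called among all tested miRNAs. Those were 19.4% higher and 18.1% lower in pupae against larvae, 11.2% and 12.2% in adults against pupae, 17.5% and 15.6% in adults against larvae, and 10.7% and 18.4% over the instars. In pupae against larvae 23 of the 29 were tested, of which 2 rose and 2 fell, with a median log2 fold change of 0.53 against -0.01 over all miRNAs. The largest rise was that of sfr-miR-279b-3p (log2 0.80), from a family that shapes carbon dioxide sensing neurons in flies. The largest fall was that of miR-124-y (log2 -2.91), a neuronal miRNA across animals. In adults against pupae 3 rose and 3 fell of 23, led by sfr-miR-210-3p (log2 3.20), a miRNA of photoreceptors in flies, and by miR-9-z (log2 -2.29), which limits sensory organ precursors there. Adults against larvae gave 6 higher and 4 lower of 23, led by sfr-miR-210-3p (log2 5.16) and miR-137-y (log2 -3.31). Over the instars 6 of 16 fell, as sfr-miR-263b-5p did, with the steepest slope in miR-124-y (log2 -1.38 per instar). On pupal day 4 against day 1 and on adult day 1 against pupal day 7, where miR-263-x moved most, edgeR called 0 of the 24 tested rows, against 5.52% and 3.78% of all miRNAs. In each of these steps 5 of the 24 had an unadjusted edgeR p under 0.05, against 87 and 83 of all 344 miRNAs. DESeq2 called 4 of the 24 in each, against 85 and 75 of the 344. The median log2 fold changes of the list were -0.14 and 0.03.

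**Figure D5:**
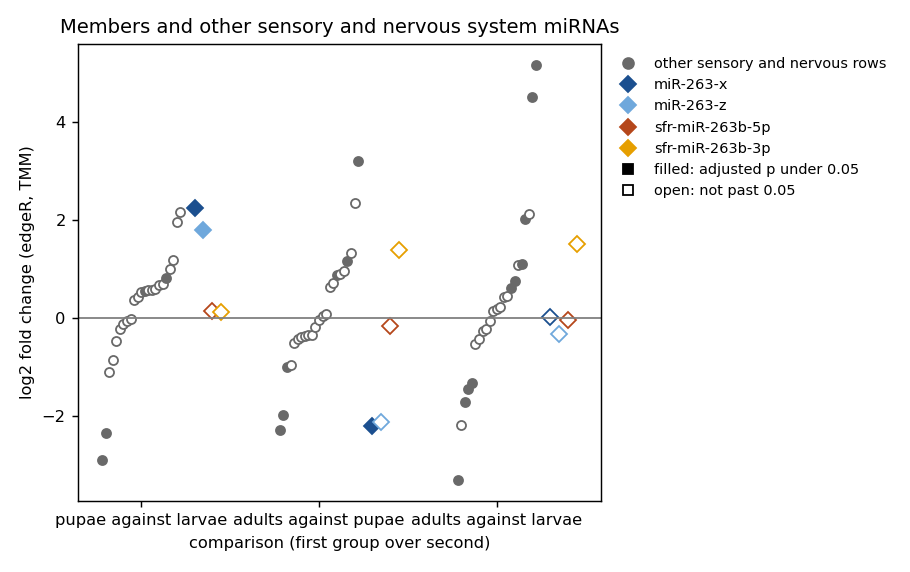
Log2 fold changes, first group over second, of the 23 tested rows of the sensory and nervous system list (circles, in rising order) and of the 4 tested members (diamonds) in 3 stage comparisons. Filled symbols passed an adjusted p of 0.05; miR-263-x stands at 2.23, -2.21 and 0.02.

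In flies hid and its partner genes are also held down by bantam, miR-14, miR-308 and the miR-2, miR-11 and miR-13 families, of which the table has 26 rows. The shares called among all miRNAs, given above for the sensory list, apply to the counts of this list and of those after it. In pupae against larvae 5 of 19 tested rows rose, most of all sfr-miR-2b-3p (log2 1.52), and 2 fell, most of all bantam-x (log2 -0.97). All 5 that rose were rows of the miR-2 and miR-13 families, and the 2 that fell were bantam-x and bantam-y. In adults against pupae 9 of 19 fell and 2 rose, led by sfr-miR-2c-5p (log2 -3.24) and sfr-miR-14-3p (log2 1.39). The median log2 fold change was -0.75, against 0.09 over all miRNAs. All 9 that fell were again rows of the miR-2 and miR-13 families, and the 2 that rose were sfr-miR-14-3p and bantam-y. Related rows of a family were counted singly, so these counts do not describe the list as a whole. In adults against larvae 4 of 19 fell, led again by sfr-miR-2c-5p (log2 -2.89), and over the instars 5 of 14, the steepest sfr-miR-14-5p (log2 -0.48 per instar). In edgeR sfr-miR-13b-3p was the single row of 21 called on pupal day 4 against day 1 (log2 1.81) and on adult day 1 against pupal day 7 (log2 -2.20), the same directions as miR-263-x. DESeq2 called 7 and 9 of the 21 in these steps, against 85 and 75 of all 344 miRNAs. The let-7 complex, the temporal regulator of metamorphosis, had 2 of 7 rows higher in pupae than in larvae, led by let-7-x (log2 3.53), and 4 of 5 higher over the instars, also led by let-7-x (log2 1.79 per instar). On pupal day 4 it had 1 of 7 higher, miR-125-x (log2 6.53), where 2.62% of all miRNAs were higher. In adults against pupae edgeR and DESeq2 each called 0 of 7, and 0 had an unadjusted p under 0.05. Of the 4 muscle rows, 2 were lower in pupae than in larvae, led by miR-133-z (log2 -1.38), and 2 rose over the instars, led by miR-1-z (log2 0.31 per instar). Muscle rows took 1.74% and 1.55% of the counts of the day 4 female and male pupae, against 3.64% and 2.26% on day 1.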

How the data were processed

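Total RNA (Trizol) went through a TruSeq small RNA preparation and was read on an Illumina HiSeq, per the labels' protocols. The authors deposited a single table with raw read counts, a name and a sequence in each of its 741 rows. The aligner and miRNA caller they used are not stated in the labels or the file, and without a genome to map to the rows have no coordinates. The members and the lists of families were chosen with earlier results of these data known.

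Levels are CPM of column totals. Before testing, rows with one sequence and equal counts were joined (660 remained), and those averaging 10 counts or more in a fit entered edgeR's quasi-likelihood test (version 4.0.16 under R 4.3.3, TMM factors). P-values were Benjamini-Hochberg adjusted over all rows of a comparison (threshold 0.05). SE is approximate, being the log2 change over the square root of F. Stage comparisons share 1 fit of 16 libraries; age and sex comparisons share 10; the larval slope uses instar number. Ratios were tested by exact permutation over libraries. Near copies differ by no more than 2 bases across 18 or more aligned. Duplexes were computed with RNAduplex (ViennaRNA 2.7.2).

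The alternatives changed the scaling (size factors of DESeq2 1.42.0, or totals), the filter, the test (DESeq2 Wald), the merging, the rows of vertebrate families, the age term, the pseudocount of ratios, the counting of near copies, and the libraries, left out one by one. Leaving out the male pupae of days 4 and 7 together, and testing miR-263-x with its near copies as 1 row, were chosen after seeing the data. Tests were first tried on simulated data. Named miRNAs were the members, rows sharing a seed or nearly a sequence with them, the 5 most alike by r, and each list's largest called rise and fall; 2 predicted rows that the rule took are given without their names. Software was Python 3.11.15 with numpy 2.4.6, pandas 2.3.3, scipy 1.17.1 and, for drawing, matplotlib 3.10.9.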

Additional observations from a re-analysis of the deposited data

Results flagged for a closer look

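The gap of the highest or lowest library to its nearest neighbour was set against Dixon's 95% critical value in 15 groups, the 5 rows in larvae, pupae and adults, and 4 stood out; chance gives about 1 group in 20. Instar 1 stood apart from the other 5 larvae in sfr-miR-263b-5p, at 12647 CPM, in sfr-miR-263b-3p, at 73.9 CPM, and in miR-263-y, at 8.37 CPM. The last of these is 6 counts. The day 4 female pupa stood apart from the other pupae in miR-263-y, at 1.90 CPM, again on 6 counts. The rows of both arms of miR-263b thus flag the same library, and the tests of sfr-miR-263b-5p, and of its ratio to miR-263-x, within the larvae or against them are given in the text above with and without it. No sex difference of a member was shown to differ between adults and pupae.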

How the results depend on the processing

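The labels give no replicate numbers, so no block by number was fitted. The sexes are paired by age, and the comparison of females with males holds age as a block, with 2 calls, against 5 without the age term. The higher level of miR-263-x in pupae than in larvae was called in all 8 other settings and all 16 fits without 1 library (adjusted p 0.000429 to 0.0455, edgeR and DESeq2). The calls that failed some setting are given beside their values in the report. Instar 3 limits the larvae most, with the fewest counts, and rows under the minimum of 10 counts could not be tested. The causes of the changes below were not tested.

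Scaling moved the median log2 change over all miRNAs by over 0.1 in several comparisons. With TMM factors, DESeq2's size factors and library totals it was -0.0077, 0.057 and -0.31 in pupae against larvae, 0.088, 0.16 and 0.24 in adults against pupae, 0.21, 0.071 and 0.016 in females against males, 0.032, 0.15 and -0.099 on pupal day 4 against day 1, 0.039, -0.11 and 0.14 on adult day 1 against pupal day 7, 0.14, 0.23 and 0.29 on adult day 4 against day 1 and -0.35, 0.023 and 0.36 in the sex difference between stages. On pupal day 7 against day 4 it was 0.039, 0.16 and 0.021 in the same order.

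Counts of calls moved by over 1.5 times as follows. DESeq2's Wald test called 105 miRNAs in the larval trend, 21 in females against males, 85 on pupal day 4 against day 1, 44 on day 7 against day 4, 75 on adult day 1 against pupal day 7, 10 on adult day 4 against day 1 and 40 in the sex difference of adults against that of pupae. Without a filter there were 16 in females against males, 30 on pupal day 4 against day 1 and 30 in the sex difference between stages. Without vertebrate families the same 3 gave 13, 49 and 21, with 53 on adult day 1 against pupal day 7. In females against males there were 4 with rows unmerged. Pupal day 4 against day 1 gave 39 with library totals and 30 with near copies summed; adult day 1 against pupal day 7 gave 32 with size factors and 38 with library totals. Adult day 4 against day 1 gave 0 with size factors, library totals, unmerged rows or no vertebrate families, by edgeR, against 1 call and 17 miRNAs at an unadjusted p under 0.05 with TMM factors, and 10 by DESeq2.

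These log2 values changed sign. In pupae against larvae sfr-miR-263b-5p was -0.46 with library totals and -0.18 without the day 4 and day 7 male pupae, and sfr-miR-263b-3p was -0.22 with library totals. In adults against pupae sfr-miR-263b-5p was 0.068 with library totals and 0.11 without those male pupae. In adults against larvae miR-263-x was -0.12 with library totals and sfr-miR-263b-5p 0.13 with no filter. For females over males, size factors, library totals, the Wald test and leaving out vertebrate families gave -0.033, -0.087, -0.033 and -0.074 for miR-263-x and -0.043, -0.10, -0.043 and -0.084 for sfr-miR-263b-5p; without an age term miR-263-z was 0.13 and sfr-miR-263b-3p -0.017. The sex difference of miR-263-z between stages was 0.14, 0.48, 0.14 and 0.14 in those 4 settings. The 5p to 3p ratio of miR-263b in pupae against larvae was 0.047 with 1 added to each count. With near copies summed, the ratio of miR-263-x to miR-263-y was -1.77 in adults against larvae, against 0.33 as listed, where zeros of miR-263-y set the values. In pupae against larvae this ratio kept its sign, at 1.16 against 3.47 as listed.

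miR-263-x in adults against pupae was -1.71 and did not pass without the day 4 and day 7 male pupae. sfr-miR-263b-5p passed on pupal day 4 against day 1 with size factors (1.80), library totals (1.55), the Wald test (1.80), vertebrate families left out (1.56) and near copies summed (1.60). It passed by the Wald test on day 7 against day 4 (1.55) and on adult day 1 against pupal day 7 (-1.33). The egg level of miR-263-x was 11558 CPM with TMM factors, 10585 CPM with merged totals and 8411 CPM with near copies summed; in the prepupa these were 19447, 17506 and 17401 CPM. With TMM factors sfr-miR-263b-5p had 126 CPM in the egg and 535 CPM in the prepupa.

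Leaving out 1 library at a time gave 29 to 91 calls in adults against pupae, 36 to 74 in the larval trend, 1 to 14 in females against males, 0 to 71 on pupal day 4 against day 1, 0 to 12 on day 7 against day 4, 0 to 70 on adult day 1 against pupal day 7, 0 to 9 on adult day 4 against day 1 and 0 to 58 in the sex difference between stages. For miR-263-x the log2 values then ran over -2.49 to -1.81 in adults against pupae, -0.12 to 0.15 in adults against larvae, -0.19 to 0.079 in the larval trend, -0.25 to 0.22 in females against males, 2.66 to 3.43 on pupal day 4 against day 1, -3.40 to -2.91 on adult day 1 against pupal day 7 and -1.08 to -0.33 for the sex difference between stages. For sfr-miR-263b-5p they ran over -0.27 to 1.42 in pupae against larvae, -0.45 to 0.19 in adults against pupae, -0.34 to 1.26 in adults against larvae, -0.98 to -0.33 in the larval trend and -0.15 to 0.22 in females against males. Its ranges were 1.50 to 1.92 on pupal day 4 against day 1, 1.06 to 1.71 on day 7 against day 4, -1.51 to -0.88 on adult day 1 against pupal day 7, -0.64 to 0.69 on adult day 4 against day 1 and -1.55 to 0.074 for the sex difference between stages. Without either day 4 adult it passed in the first 3 of these. miR-263-z ran over -0.27 to 0.0078 in the larval trend, -0.35 to 0.070 in females against males and -0.56 to 0.26 for the sex difference between stages. sfr-miR-263b-3p ran over -0.13 to 0.60 in pupae against larvae, -0.15 to 0.41 in females against males, -1.12 to 0.75 on pupal day 7 against day 4 and -0.97 to 0.0069 on adult day 4 against day 1. The ratio of miR-263-x to sfr-miR-263b-5p in adults against pupae ran over -2.04 to -1.69, that of miR-263-x to miR-263-y over -3.38 to -2.95, and the 5p to 3p ratio of miR-263b in pupae against larvae over -0.45 to 0.20.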
